A study of Cynara cardunculus with 36 samples.

Results

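The 100 gene models described here were those whose read counts varied least among artichoke hearts of 4 cultivars over 14 days of cold storage. They were chosen by their measured values. For each gene model, a level L was computed as log2 CPM, the count per M reads in genes, with library sizes scaled by the trimmed mean of M-values (TMM), a method that sets the scale of each library so that most gene models keep their level relative to a common library. Of 28632 gene models, 21883 had at least 10 reads in at least 3 libraries, and 9111 of these had a mean L between 4 and 8. The members were the 100 of those 9111 with the lowest standard deviation (SD) of L over 32 libraries, ranked from 1 (lowest SD) to 100. A further 4 libraries, in which over 25% of the listed reads fell outside gene models, were not used for the choice, and the members are read in them separately.

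Transcripts that keep a near constant share of the RNA pool serve as reference genes: in quantitative RT-PCR the amount of a target transcript is divided by that of a reference, and the result is only as steady as the reference. Genes for cell maintenance functions are the classical choice, but in plant organs after harvest many of these change with wilting, wounding, cold or senescence. Candidates are therefore usually picked for the tissue and treatment at hand, and checked in material that had no part in picking them.

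The hearts, the edible receptacle and inner parts of the immature flower head, came from globe artichoke (Cynara cardunculus var. scolymus) of Opal (OP) and Imperial Star (IS), and of 2 cultivars with green in their names, Green Queen (GQ) and Green Globe Improved (GGI). All plants were grown in a field and treated with GA, so the day 0 hearts carry that treatment too. All heads were also held in the cold before the first sampling, and day 0 is therefore not a freshly cut head. RNA was sequenced from whole hearts at day 0, 7 and 14 of cold storage, with 3 biological replicates for each cultivar and day, 36 libraries in all. In whole hearts, fewer cells of a type and less RNA per cell cannot be told apart. P-values below measure the spread between these libraries.

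The depth was 5.76 to 54.5 M reads in genes (median 39.6 M). The 4 libraries left out of the choice were all from day 7 and are written here as OP7-1 (replicate 1 of OP), GGI7-2 (replicate 2 of GGI), GQ7-2 and GQ7-3 (replicates 2 and 3 of GQ). The share of listed reads outside gene models was 71.0% in OP7-1, 33.5% in GGI7-2, 31.6% in GQ7-2 and 30.1% in GQ7-3, against 9.39% to 16.0% in the other 32. This leaves 8 libraries of that day (2 of OP, 3 of IS, 2 of GGI and 1 of GQ). At day 14, the labels of GGI and GQ were checked with 99 gene models that at day 0 were read above 1 CPM in each library of either cultivar and below 0.1 CPM in each library of the other. The library labelled GGI day 14 replicate 1 had 91 of the 99 in the GQ state, and the library labelled GQ day 14 replicate 1 had 71 of the 99 in the GGI state. The SD that chose the members does not use cultivar labels; the count of members called between day 14 and day 0 is given with and without these 2 libraries. Gene models are named by ID alone and 0 of the 28632 IDs matched the gene table of the RefSeq assembly CcrdV1.1, so no functions, positions or sequences are given, no list of classical reference genes could be compared with the members, and the tissue could not be checked with markers.

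The members kept a nearly even level across cultivars and days in the libraries that chose them. Their SD of L was 0.0900 at rank 1, 0.105 at rank 2, 0.142 at rank 10 and 0.171 at rank 50, all in log2 units. The limit of the choice was not a gap: the SD was 0.1838 and 0.1840 at ranks 99 and 100, and 0.1842 and 0.1845 for the next 2 gene models outside. The median SD was 0.171 among the members, a 1.13-fold spread, against 0.479 among all 9111 gene models of that level range, a 1.39-fold spread. From its lowest to its highest library of the 32, a member spanned 1.31-fold to 2.20-fold, with a median of 1.63-fold. In 3 members, at ranks 92, 95 and 98, that span exceeded 2-fold; the widest, at rank 95, was read at 12.7 to 28.0 CPM. These values chose the members and are a description.

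**Figure D1:**
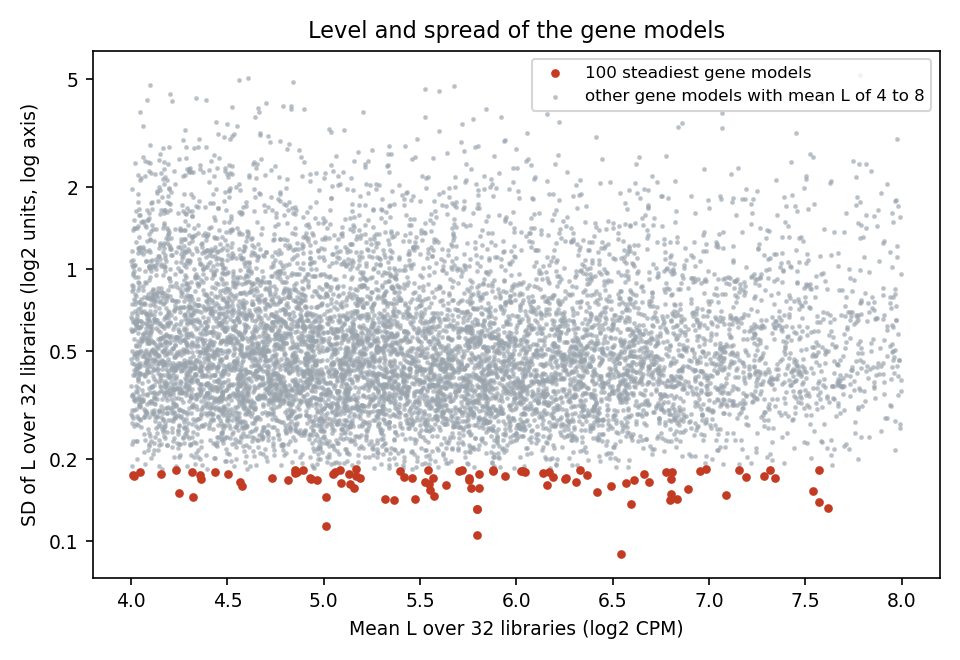
Each point is 1 of the 9111 gene models with a mean L of 4 to 8 (horizontal axis, log2 CPM); the vertical axis, on a log scale, is the SD of L over 32 libraries in log2 units. The 100 members (red) form the lower edge, from 0.0900 to 0.1840, at all levels from 4.01 to 7.62.

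Members were found at every level in the allowed range. Their mean L ran from 4.01 to 7.62 with a median of 5.73, against a median of 5.37 for the 9111. They made up 0.682% of the gene models with mean L of 4 to 5 (23 members), 1.31% at 5 to 6 (38), 1.48% at 6 to 7 (29) and 1.14% at 7 to 8 (10). The level range itself also shaped the list: 10 gene models of lower mean (the highest at 3.98) and 1 of higher mean (8.02) had an SD as low as the members. Read counts were large enough that counting error played a small part. The least covered member had 360 reads in its poorest of the 32 libraries, and counting error made up a median of 3.73% of a member's variance, so the spread of the members is mainly a spread between libraries beyond counting.

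The steadiest member, V2_03g004290.1.01 at rank 1, was read at 80.3 to 99.6 CPM in the 12 day 0 libraries (median 92.4), at 85.9 to 105 CPM in the 8 day 7 libraries used (median 93.7) and at 86.9 to 105 CPM in the 12 day 14 libraries (median 91.5). The 3 days overlap almost wholly. Over the 32 libraries it averaged 93.2 ± 5.85 CPM (SD, n = 32), a coefficient of variation of 6.27%, from 2835 to 5580 reads per library. By cultivar, its day 14 mean was 95.3 ± 6.56 CPM in OP, 88.5 ± 2.26 CPM in IS, 98.3 ± 9.90 CPM in GGI and 94.9 ± 4.68 CPM in GQ (SD, n = 3 each), where the GGI and GQ means each hold the library with crossed markers, at 105 CPM in GGI and 99.4 CPM in GQ, so no order of these 2 cultivars can be given.

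V2_03g007740.1.01, at rank 2, was read at 44.6 to 65.6 CPM at day 0 (median 54.7), at 50.9 to 57.4 CPM at day 7 (median 56.1) and at 51.4 to 59.3 CPM at day 14 (median 56.9). Its medians lay close together, but its spread was widest before storage, with an SD of 5.82 CPM at day 0 (n = 12), 2.34 CPM at day 7 (n = 8) and 2.48 CPM at day 14 (n = 12). At day 0 it averaged 58.0 ± 4.58 CPM in OP, 48.0 ± 3.52 CPM in IS, 54.3 ± 0.64 CPM in GGI and 60.4 ± 4.63 CPM in GQ (SD, n = 3 each). The 3 IS libraries were the lowest 3 of the 12 at that day.

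V2_15g010660.1.01, at rank 3, was read at 30.8 to 35.4 CPM at day 0 (median 32.5), at 33.2 to 37.2 CPM at day 7 (median 35.3) and at 27.8 to 33.5 CPM at day 14 (median 29.2). The means were 32.9 ± 1.33 CPM at day 0 (n = 12), 35.0 ± 1.35 CPM at day 7 (n = 8) and 29.9 ± 1.72 CPM at day 14 (SD, n = 12), and day 14 overlapped day 7 only by its highest library. In edgeR's fit over all 36 libraries it was called neither at day 14 (adjusted p = 0.629) nor at day 7 (adjusted p = 0.503), each against day 0. That fit also holds the 4 left-out libraries, and its log2 differences were -0.0849 at day 14 and -0.129 at day 7. The day 7 difference thus ran opposite to the means of the libraries used. Without the 4 libraries the day 14 difference was -0.139. These adjusted p-values therefore do not test the differences among the 32 libraries alone. They do not show that rank 3 kept its level.

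V2_08g008520.1.01, at rank 13 with an SD of 0.144, was read at 38.6 to 44.8 CPM at day 0 (median 42.1), at 33.8 to 52.4 CPM at day 7 (median 40.03) and at 32.4 to 41.0 CPM at day 14 (median 38.4). Its highest value of the 32, 52.4 CPM, was in GQ day 7 replicate 1, the only GQ library of that day that was used; the day 0 GQ libraries averaged 41.2 ± 0.658 CPM (SD, n = 3). The other day 7 groups averaged 40.9 CPM in OP (n = 2), 38.1 ± 5.13 CPM in IS (SD, n = 3) and 39.3 CPM in GGI (n = 2). The fitted day 14 difference of rank 13 over all 36 libraries was -0.119 (edgeR adjusted p = 0.218). Whether it was called depended on the scale, as given below.

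**Figure D2:**
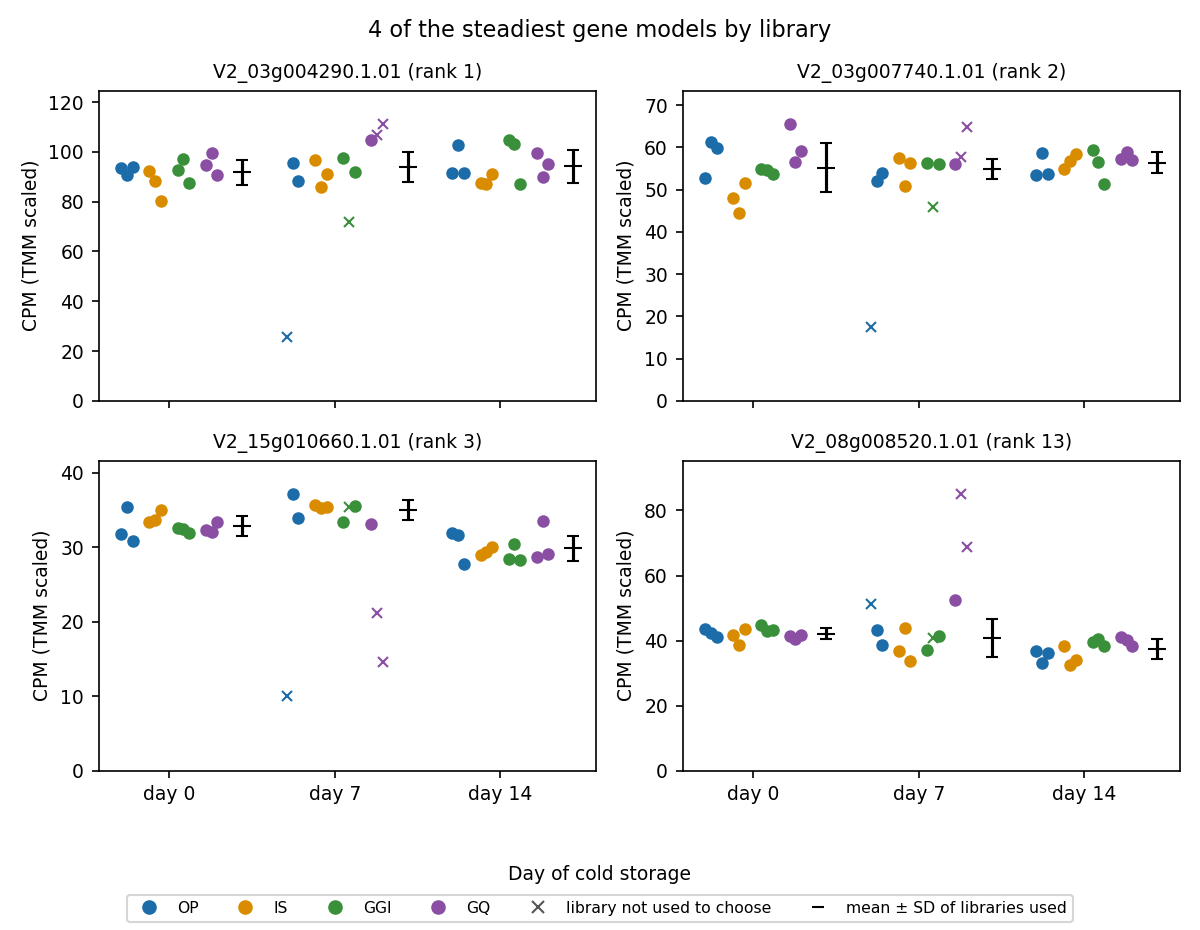
TMM-scaled CPM of the 4 named members in each library by day of cold storage, coloured by cultivar; circles are libraries used to choose the members, crosses are the 4 left out, and bars are the mean ± SD of the libraries used. The circles of rank 1 stay between 80.3 and 105 CPM, while its crosses run from 25.6 to 111 CPM.

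The little spread that the members had was shared out among the design differently from that of other gene models. Of a member's sum of squares over the 32 libraries, the median share was 17.6% for the day, against 40.3% for the 9111 gene models of the same level range. The cultivar took 13.4% among the members and 12.9% among the 9111, the interaction of cultivar and day 25.4% and 17.7%, and the difference between replicates 36.2% and 20.0%. Members varied among themselves in this: the share taken by the day ran from 0.671% to 73.4%. The SD between replicates of 1 group also was lower, at a median of 0.125 among the members and 0.260 among the 9111 in log2 units. The parts for cultivar, interaction and replicates use the labels as given, also for the day 14 GGI and GQ libraries with crossed markers. As the rule chose low total variance, these shares describe the members and test nothing.

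Some libraries carried more of the members' extremes than others. OP day 14 replicate 2 and GQ day 7 replicate 1 each held the highest of the 32 values for 13 members, and IS day 7 replicate 2 for 9. GGI day 0 replicate 3 held the lowest value for 11 members, and IS day 0 replicate 2 and OP day 7 replicate 3 for 8 each. In every one of the 32, the median distance of a member from its own mean stayed between 0.0673 and 0.164 log2 units, against 0.233 to 0.521 for the 9111.

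Ratios between members, which do not depend on how libraries are scaled, had a small spread over the 32 libraries, which the low SD of each member fixes in large part; they are a description. Among the 10 steadiest members the SD of the log2 ratio ran from 0.0991 to 0.233 over 45 pairs, with a median of 0.170. The log2 ratio of rank 1 to rank 2 averaged 0.748 with an SD of 0.109 and ran from 0.530 to 0.985 over the 32 libraries. Rank 1 also had the lowest mean SD of its ratios to the other 99 members, at 0.182, against a median of 0.233 over the members. The members did not move as 1 block: over their 4950 pairs, the correlation of L across the 32 shared libraries ran from -0.780 to 0.783 with a median of 0.0256.

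The share of all reads in genes that the members held together had lower medians at later days, with ranges that overlapped. They took 0.673% to 0.784% of reads at day 0 (median 0.756%), 0.644% to 0.747% at day 7 (median 0.690%) and 0.502% to 0.702% at day 14 (median 0.571%). TMM factors moved with this, from 1.03 to 1.19 at day 0 (median 1.13), 1.00 to 1.06 at day 7 (median 1.03) and 0.761 to 1.04 at day 14 (median 0.862). As the members were chosen for a steady TMM-scaled level, the choice fixes this parallel in large part. The 10 most abundant gene models took a median of 5.93% of reads at day 0, 5.89% at day 7 and 6.57% at day 14. The steadiness of the members is therefore a steadiness relative to the bulk of gene models, and not of their share of all reads. A scale computed from the members in place of TMM differed from it by -0.0670 to 0.0690 log2 units over the 32 libraries that chose them, and by -0.495 in OP7-1, -0.0122 in GGI7-2, -0.105 in GQ7-2 and -0.432 in GQ7-3.

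Between days, the fitted differences of the members were small, as their choice requires. In edgeR's quasi-likelihood fit over all 36 libraries, 11 of the 100 members differed between day 14 and day 0 at a Benjamini-Hochberg adjusted p under 0.05, beside 59.6% of all 21900 gene models tested and 61.4% of the 9111. All 11 were higher at day 14; higher calls were 30.4% and lower calls 29.1% of all gene models. The fitted log2 differences of the 100 (day 14 minus day 0, mean of the cultivars) ran from -0.183 to 0.345 with a median of 0.0816, and 67 were above 0. That lean depended on the scale: with RLE size factors (median of ratios to a mean library), which moved the median of all gene models by -0.109, 2 members were called higher and 7 lower. DESeq2 called 6 higher and 9 lower. A scale from the members themselves, which moved it by -0.0704 and centres the members by construction, gave 5 higher and 4 lower. Of all gene models tested, 59.9% were called with RLE, 63.8% with DESeq2 and 59.9% with the members' scale. The fitted differences of ranks 1 and 2, 0.0923 and 0.0890 with TMM, turned to -0.0170 and -0.0206 with RLE, so no direction can be given for them. That of rank 13, -0.119 with TMM (edgeR adjusted p = 0.218), was -0.228 with RLE (edgeR adjusted p = 0.0238). With DESeq2 it was also -0.228 (adjusted p = 0.00436), and with the members' scale -0.189 (edgeR adjusted p = 0.102). Without the 4 left-out libraries it was -0.173. The 95% interval of the difference lay within 0.5 log2 units of 0 for 90 members and within 1 unit for all 100, against 56.5% of the 9111 within 1 unit. The count of 11 was 33 (18 higher, 15 lower; beside 69.9% of all tested) when the 4 left-out libraries were dropped. It was 7 without the 2 day 14 libraries with crossed cultivar markers, beside 55.5% of all tested. It was also 7 without IS day 0 replicate 2 (12556 of 22248 gene models called) or without GQ day 14 replicate 1 (12719 of 22273).

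Between day 7 and day 0, 20 members were called (12 higher, 8 lower), beside 37.6% of all gene models (20% higher, 17.6% lower) and 44.5% of the 9111. This fit holds the 4 libraries that the choice did not use, all from day 7. The fitted log2 differences ran from -0.517 to 0.795, and the 95% interval lay within 1 unit of 0 for 98 members and within 0.5 for 69. The count was 13 without GQ day 0 replicate 2, GGI7-2 or GQ7-2, left out in turn, and 41 without GQ day 7 replicate 1. In these fits 7430 of 22314, 8001 of 22228, 7959 of 22295 and 10085 of 22289 gene models were called, in the same order. DESeq2 called 31 members, beside 44.8% of all gene models. Among the cultivars at day 0, 0 members were called by edgeR's F test, beside 14.3% of all gene models, and 0 had an unadjusted p under 0.05; DESeq2 called 2, and edgeR without the 4 libraries called 17, beside 37.5% of all. The change from day 0 to day 14 differed between cultivars for 0 members, beside 3.16% of all gene models, and the change to day 7 for 13, beside 24.3% (edgeR F tests, adjusted p under 0.05; 0 and 25 members at an unadjusted p under 0.05). The day 14 test uses the GGI and GQ labels of the 2 libraries with crossed markers and was not run without them.

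The members were less steady in the 4 libraries that had no part in choosing them. In OP7-1, 77 of the 100 members lay outside the range of their own 32 values, 59 below and 18 above. In GGI7-2 it was 43 (24 below, 19 above), in GQ7-2 it was 68 (40 below, 28 above) and in GQ7-3 it was 79 (53 below, 26 above). Of the 9111 gene models of that level range, 47.7%, 17.6%, 51.7% and 62.5% lay outside their wider ranges in those libraries, in the same order. In log2 distance from their own mean, however, members stayed nearer than other gene models. The median distance was 0.764 for members and 0.971 for the 9111 in OP7-1, 0.320 and 0.486 in GGI7-2, 0.547 and 1.08 in GQ7-2, and 0.886 and 1.48 in GQ7-3. A distance over 1 unit, or 2-fold, was read for 38, 0, 24 and 41 members in these libraries, against 48.9%, 19.4%, 53.5% and 65.8% of the 9111.

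**Figure D3:**
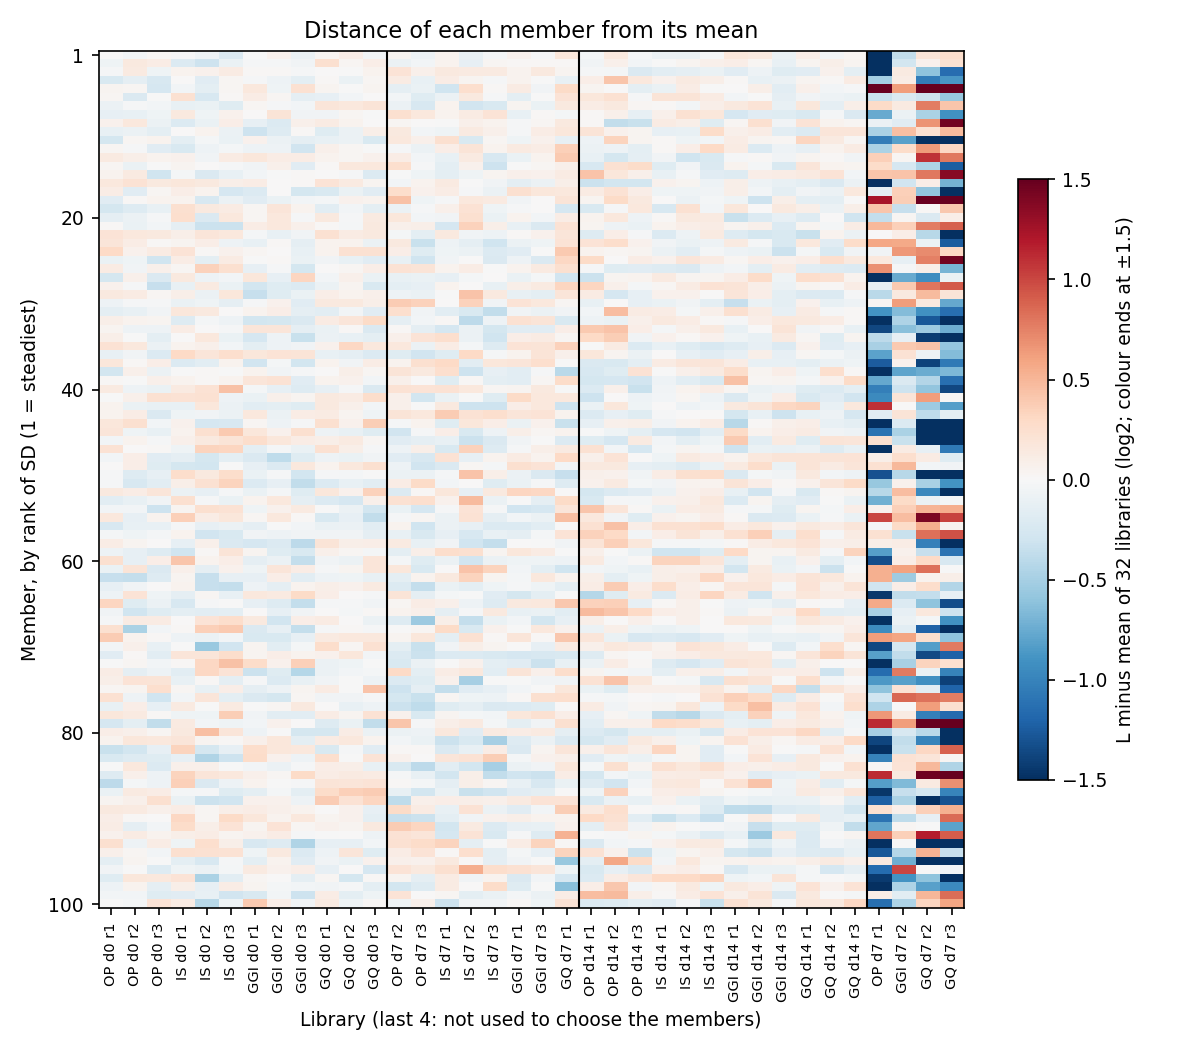
Distance of L from the mean of 32 libraries (colour, log2 units, ending at 1.5 either way) for each of the 100 members (rows, by rank of SD) in each library (columns, by day and cultivar, d for day and r for replicate), with the 4 libraries not used for the choice at the right. The 32 libraries are pale throughout, and strong colours in both directions stand in the columns of OP7-1, GQ7-2 and GQ7-3, while in GGI7-2 no member lies more than 1 unit away.

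**Figure D4:**
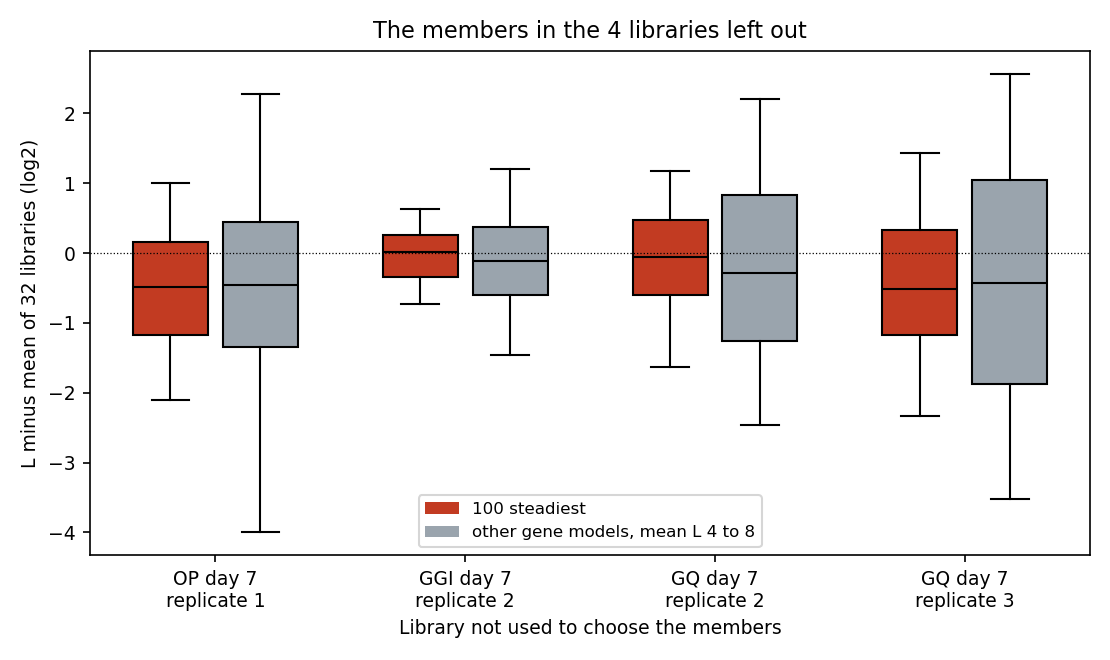
Distance of L from the mean of 32 libraries (log2 units) in each of the 4 libraries left out, for the 100 members (red) and the other gene models with mean L of 4 to 8 (grey); boxes are the quartiles with the median, and whiskers the 5th and 95th percentiles. The member boxes are narrower in every library, with medians of -0.488 in OP7-1, 0.0157 in GGI7-2, -0.0607 in GQ7-2 and -0.513 in GQ7-3.

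The low SD of a member in the 32 libraries did not carry over alike to these 4. By number of the 4 libraries in which a member lay outside its range, 1 member (rank 48) lay outside in none, 12 in 1, 25 in 2, 43 in 3 and 19 in all 4. Rank 48 was read at 50.6, 56.5, 51.7 and 41.8 CPM in OP7-1, GGI7-2, GQ7-2 and GQ7-3, against 47.7 ± 5.58 CPM (SD) in the 32. Of the 19 that lay outside in all 4, 4 were higher in all 4 and 11 lower in all 4. The rule chose narrow ranges, and these counts outside them were not made for the 9111, so they describe the members only. Counting any distance from the mean, 12 of the 100 members were higher in all 4 and 26 lower in all 4, against 15.6% and 31.1% of the 9111. Rank 1 was read at 25.6 CPM in OP7-1 (92 reads) and 71.8 CPM in GGI7-2, and at 107 and 111 CPM in GQ7-2 and GQ7-3, against 80.3 to 105 CPM in the 32. It lay below its range in the OP and GGI libraries and above it in both GQ libraries. Rank 2 was read at 17.5, 45.8, 57.8 and 64.8 CPM in those libraries, low in the OP library only. Rank 3 was read at 10.0, 35.4, 21.2 and 14.6 CPM, within its range only in the GGI library. Rank 13 was read at 51.1, 40.7, 85.1 and 68.9 CPM, above its range in both GQ libraries.

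The log2 ratio of rank 1 to rank 2 stayed inside its range of the 32 libraries in all 4: it was 0.546 in OP7-1, 0.651 in GGI7-2, 0.887 in GQ7-2 and 0.781 in GQ7-3. In the OP library both gene models were read far below their means of 93.2 and 55.5 CPM, so their ratio stayed in range while their levels did not. This pair was chosen for its ranks, and the other pairs were not read in this way.

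The members farthest above their means in the 4 libraries were led by rank 5. It was read at 268 CPM in OP7-1, 85.5 CPM in GGI7-2, 212 CPM in GQ7-2 and 267 CPM in GQ7-3, against 55.8 ± 5.13 CPM in the 32 libraries (SD; 45.2 to 67.8). All 4 lay above the highest of the 32, which was GQ day 7 replicate 1. Against the other day 7 libraries of the same cultivars, its fitted log2 difference was 1.66 ± 0.20 (SE), with an adjusted p of 1.76e-06 by edgeR's quasi-likelihood test. Rank 5 was singled out by these same values, so the test is a description. Rank 79 was read at 239, 169, 333 and 318 CPM in the same order, against 110 ± 13.9 CPM in the 32 (SD; 84.8 to 147), and also lay above its range in all 4. Rank 18 was read at 262, 144, 313 and 416 CPM, against 112 ± 12.0 CPM (SD; 89.8 to 151), and lay within its range in the GGI library. Rank 96 was the farthest above its mean in GGI7-2, at 59.4 CPM against 29.9 ± 4.02 CPM in the 32 (SD), but was read at 13.3, 29.7 and 28.9 CPM in the OP and the 2 GQ libraries, so that its fitted difference of -0.0671 has no direction.

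Other members lay far below their means in some or all of the 4 libraries. Rank 11 was read at 21.7 CPM in OP7-1, 25.3 CPM in GGI7-2, 12.4 CPM in GQ7-2 and 6.91 CPM in GQ7-3, against 44.6 ± 4.53 CPM in the 32 (SD; 36.9 to 55.9). All 4 lay below the lowest of the 32, and the fitted log2 difference was -1.37 ± 0.18 (SE, edgeR adjusted p = 4.63e-06). Rank 11 was also singled out by these values. Rank 93 was read at 31.1, 142, 45.4 and 15.2 CPM, against 143 ± 18.3 CPM (SD; 104 to 180): it kept its level in the GGI library and lay far below it in the other three. Rank 97, the farthest below its mean in the GGI library, was read at 12.5, 18.2, 22.3 and 9.79 CPM, against 34.1 ± 4.29 CPM (SD). Ranks 38 and 44 had 0 reads in OP7-1, where 3 counts in that library stand for 0.834 CPM. Against that floor they were at least 28.5-fold and at least 24.8-fold lower there than their means of 23.7 and 20.7 CPM in the 32.

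Tested over all gene models, members were called about as often as others of their level. In a fit with 1 added coefficient for the 4 libraries within their cultivar and day, 52 of the 100 members differed from the other day 7 libraries at an adjusted p under 0.05 (edgeR), 13 higher and 39 lower. Over all 21900 gene models 36.1% were called, 13.4% higher and 22.6% lower, and over the 9111 51.9%, 16.7% higher and 35.2% lower. The sizes were smaller, with a median absolute log2 difference of 0.434 for the members and 0.711 for the 9111. The median SE was smaller too, at 0.161 and 0.254. As the rule chose a low spread in 32 of the 36 libraries of this fit, the rate of calls is not independent of the choice. Differences ran from -1.65 to 1.66 with a median of -0.326, and 10 members differed by more than 1 unit. RLE, which moved the median of all gene models by 0.105, gave 19 higher and 31 lower. A scale from the members, which moved it by 0.265 and centres the members by construction, gave 28 higher and 22 lower. Of all gene models tested, 34.3% were called with RLE and 33.5% with the members' scale. The fitted difference of rank 1 was -0.69 ± 0.19 (SE; edgeR adjusted p = 0.006), but it rested on the OP library, without which it was -0.188 (adjusted p = 0.283). That of rank 2 was -0.56 (adjusted p = 0.0148), and without the OP library -0.103 (adjusted p = 0.573). The difference of rank 3, -0.82 (adjusted p = 0.00124), was -0.444 without OP7-1 (adjusted p = 0.0363) and -1.33 without GGI7-2 (adjusted p = 1.37e-06). Rank 3 and ranks 5, 11, 93 and 97 kept their call under all 42 other settings and left-out libraries. Ranks 5, 11, 93 and 97 were singled out by their values in the 4 libraries, so their calls are a description. The 4 libraries also differ from the rest in the share of reads outside gene models and in depth, with 5.76 to 32.7 M reads in genes, against 33.3 to 54.5 M in the 32. TMM factors were 0.625 in OP7-1, 0.652 in GQ7-2 and 0.585 in GQ7-3, below the 32 libraries (0.761 to 1.19), and 1.09 in GGI7-2, within them. The part of these in the members' differences was not tested.

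Steadiness was next read within the 32 libraries by repeating the choice without some of the 32 and reading the new 100 in those left out. Chosen without day 14, the 100 differed between the day 14 libraries and the others by a median of 0.235 log2 units, against 0.479 for all gene models of the level range; 54 lay within 0.25 units, a 1.19-fold difference, against 28.4%, and 1 differed by more than 1 unit, against 21.7%. Chosen without day 7, the median was 0.161 against 0.269, with 74 within 0.25 units against 47.3%. Chosen without day 0, it was 0.168 against 0.395, with 65 within 0.25 units against 33.9%. In both cases 0 of the 100 differed by more than 1 unit. Of these sets, 43, 52 and 40 gene models were among the 100 members when day 0, day 7 and day 14 were left out.

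Leaving out a cultivar moved the chosen gene models less. The median difference was 0.0961 for the 100 chosen without OP, against 0.178 for all gene models of the level range, 0.0949 against 0.208 without IS, 0.0785 against 0.142 without GGI and 0.0836 against 0.180 without GQ. Within 0.25 units lay 89, 94, 98 and 97 of the 100 in that order, against 64.1%, 57.3%, 73.4% and 64.1%, and 0 of the 100 differed by more than 1 unit in any of the 4. Of these sets, 63, 60, 70 and 65 gene models were among the 100 members. The splits follow the labels, so the GGI and GQ libraries left out each include a day 14 library with crossed markers. The GGI and GQ readings therefore do not separate these cultivars cleanly. In all 7 readings the 100 chosen gene models thus lay nearer to their earlier level than gene models of the same range; the sets share libraries and are not independent of each other.

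**Figure D5:**
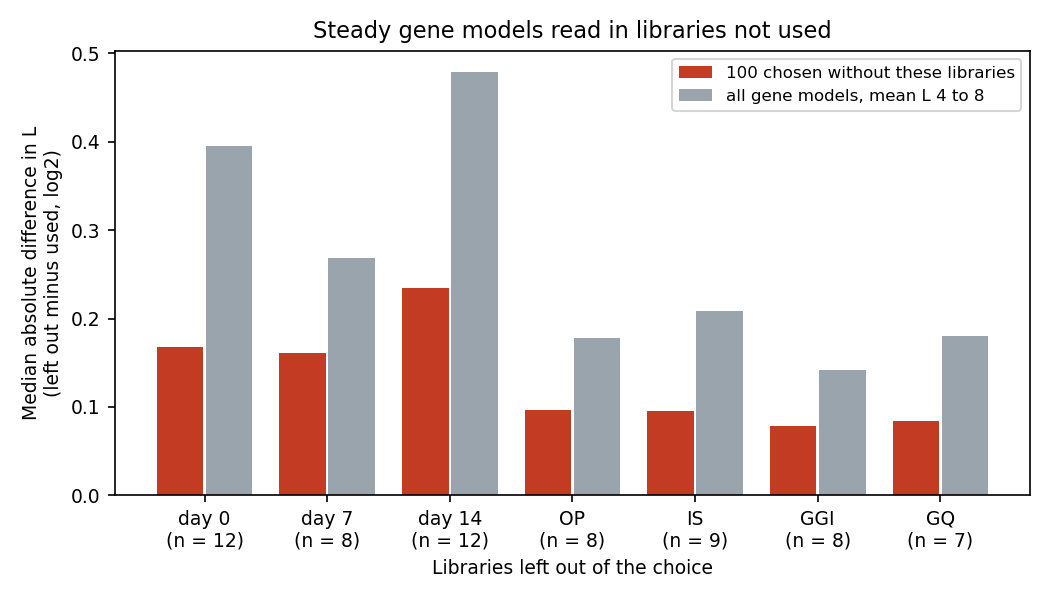
Median absolute difference in L (log2 units) between the libraries left out and those used, for the 100 gene models chosen without them (red) and for all gene models with mean L of 4 to 8 in the libraries used (grey); n is the number of libraries left out. The red bars run from 0.0785 (GGI left out) to 0.235 (day 14 left out) and the grey bars from 0.142 to 0.479, and both are higher for days than for cultivars. The GGI and GQ splits follow the labels and each include a day 14 library with crossed markers.

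Among the 32, the 8 day 7 libraries, read 1 at a time, held fewer gene models outside their range than the 4 left out. The 8 were read for 100 gene models chosen anew each time, the 4 for the members. With library size alone, 30 members lay outside in GGI7-2, so this order is given for TMM alone. With TMM and the 100 chosen anew without each library, 3 lay outside their range in GGI replicate 1 and 4 in GGI replicate 3. Of all gene models of the level range, 2.50% and 2.40% did. In OP it was 13 in replicate 2 and 11 in replicate 3, against 7.67% and 7.06%. In IS it was 5, 19 and 17 in replicates 1, 2 and 3, against 5.40%, 8.29% and 4.26%. In GQ replicate 1 it was 37, the most of the 8, against 13.9% of all gene models of the level range. That library is also the only GQ day 7 library used, and without it the 100 members shared 77 gene models with the new choice, the fewest of the 32.

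Most IDs hold, just before the letter g, a number from 01 to 17, whose meaning the files do not state. Members occurred under all 17 numbers, with 16 under 01, 12 under 10 and 10 under 05, and with 1 each under 09 and 14. Of the 9111 gene models, 10.9% were under 01, 5.80% under 10 and 6.57% under 05. No 2 members were neighbours in the order of the files, where the smallest step between members was 4.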

How the data were processed

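The authors deposited 1 table per library with whole-number read counts for 28632 gene models, not normalized. Each table also had 5 summary rows of reads not assigned to a gene model, 1 of them the reads outside gene models given above. The 5 rows together held 13.9% to 85.2% of reads listed (median 16.0%) and were kept out of library sizes and tests. The submitters' processing notes name cutadapt and STAR; their versions and roles, the counter, the build and any strand setting are not given in the sources used, so counts of near-identical or overlapping gene models are uncertain. Groups came from the sample titles. No pair of replicates agreed within sampling noise (lowest chi-square per degree of freedom 55.1).

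L was computed with edgeR 4.0.16 (TMM, prior count 2; R 4.3.3); the 4 libraries left out were scaled against the same library. Comparisons used edgeR's quasi-likelihood test (robust, filterByExpr, 21900 gene models, a mean for each cultivar and day, Benjamini-Hochberg adjustment over all tested); alternatives included DESeq2 1.42.0 and are listed below. Scripts were tested on simulated data. There, the day 14 comparison recovered 65 of 100 2-fold changes and 91 of 100 4-fold changes. The comparison of the 4 libraries recovered 9 of 100 and 59 of 100. The simulated gene models that changed were not chosen for a low spread, so these rates are not those of the members. A gene model that was not called is not thereby shown to be unchanged. Differences between days and cultivars among the members describe values that the choice used; the 4 libraries left out and the repeated choices are separate from it. Members, lists and comparisons were chosen with earlier results of these data known. The IDs printed are the 2 members of lowest SD with a fitted day 14 difference above 0 and the 2 below 0; other members are given by rank. Ranks 5, 11, 18, 38, 44, 48, 79, 93, 96 and 97 were singled out by their values in the 4 libraries.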

Additional observations from a re-analysis of the deposited data

Results flagged for a closer look

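For V2_08g008520.1.01, rank 13 of the 100, the change from day 0 to day 7 differed between the cultivars (edgeR F test, adjusted p = 0.019 over all 36 libraries). At day 7 its 3 GQ libraries were read at 52.4, 85.1 and 68.9 CPM, against 41.2 ± 0.658 CPM in GQ at day 0 (SD, n = 3). The OP libraries of day 7 were read at 51.1, 43.2 and 38.6 CPM, the GGI libraries at 37.2, 40.7 and 41.4 CPM and the IS libraries at 36.8, 43.8 and 33.8 CPM, in order of replicate. OP replicate 1, one of the 4 libraries high in reads outside gene models, lay near the lowest GQ library. Without the 4 libraries high in reads outside gene models the adjusted p was 0.12, an alternative chosen after seeing the data; only 1 GQ library of day 7 then remains. Over all gene models 24.3% had such a difference at an adjusted p under 0.05, and 13 of the 100 members did.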

How the results depend on the processing

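The list itself depended on the scale, the libraries and the measure of spread. Of the 100 members, 76 were chosen again with RLE, 45 with upper-quartile factors and 17 with library size alone, 46 by the median absolute deviation, 64 by the range and 34 with all 36 libraries. Without day 0, day 7 or day 14 it was 43, 52 and 40, and without OP, IS or GQ 63, 60 and 65; leaving out 1 library gave 77 to 97. Members called between day 14 and day 0 were 11, but 7 without the 2 libraries with crossed markers, 33 without the 4 high libraries, and 7 to 15 with 1 library left out. Between day 7 and day 0 they were 20, but 31 with DESeq2 and 13 to 41 with 1 library left out. Among cultivars at day 0 they were 0, but 2 with DESeq2, 17 without the 4 high libraries and 0 to 1 with 1 library left out. Of the 4 high libraries against other day 7 libraries they were 52, 50 with RLE, 55 with DESeq2 and 43 (without GQ day 7 replicate 1) to 62 (without GGI day 7 replicate 2). The share of all gene models called moved as well. With DESeq2 it was 63.8% at day 14, 44.8% at day 7, 22.5% among cultivars at day 0 and 40.9% in the 4 libraries. With RLE it was 34.3% in the 4 libraries. Without GQ day 7 replicate 1 the fit of the 4 libraries called 4921 of 22289 gene models. Without GGI day 7 replicate 2 it called 9442 of 22228. The cause of these shifts was not tested. The fitted difference of rank 96 in the 4 libraries turned to 0.0408 with RLE, 0.190 with the members' scale, 0.102 with DESeq2 and 0.403 without OP day 7 replicate 1; it was -0.616 without GGI day 7 replicate 2. With library size alone, the median distance of members in the libraries left out was 1.17 in OP day 7 replicate 1, and 0.741 and 1.35 in GQ day 7 replicates 2 and 3. Replicate numbers did not pair libraries: of 145 pairs with the same number, 38 had deviations correlated above 0.1, and 5 of 31 libraries correlated best with their own number. With the replicate block, 10, 18, 0 and 54 members were called in the 4 comparisons in the order above.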
